A study of Mus musculus with 9 samples.

Results

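The 3 macrophage libraries labelled Pam3CSK4 plus 3SL were compared with the 3 labelled untreated, over all genes of the count table. They were chosen by their labels alone and make up 6 of the 9 macrophage libraries analysed. Messenger RNA of bone marrow-derived macrophages from C57BL6 mice was sequenced after 6 h with PBS (untreated), with 100 µg/ml Pam3CSK4, or with 100 µg/ml Pam3CSK4 and 100 µl/ml 3SL. The dose of 3SL is a volume, so its amount is unknown, and the treatment tag of these libraries reads Pamc4-CSL although the description speaks of 3SL. Libraries A2, B2 and C2 are labelled untreated, and libraries A2plus, B2plus and C2plus are labelled with both agents. Neither the age of the mice nor the origin of the libraries within a group (separate mice, separate dishes or 1 pool) is stated in the labels. All p-values therefore measure only the spread between these libraries, which may be technical.

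Pam3CSK4 is a synthetic lipopeptide that activates Toll-like receptor 2 together with Toll-like receptor 1. Signalling through MyD88 and NF-kB then induces cytokines, chemokines and enzymes such as Nos2 and Ptgs2, which resting macrophages hardly express. Cholesterol is made from acetyl-CoA by a chain of enzymes whose genes are switched on together by the transcription factor SREBP2 when sterols are low. Its relative SREBP1 drives genes of fatty acid synthesis. Interferon-stimulated genes encode antiviral and antibacterial proteins and are read out from response elements bound by STAT and IRF factors.

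Both groups of the comparison expressed inflammatory genes at high levels, and the libraries labelled Pam3CSK4 alone did not. Cxcl3, which encodes a neutrophil-attracting chemokine, stood at 1192, 1162 and 1101 CPM (counts scaled to a common library size) in A2, B2 and C2. Its level was 472, 551 and 581 CPM in A2plus, B2plus and C2plus, and 0.640, 0.344 and 1.76 CPM in the 3 libraries labelled Pam3CSK4. The label of the untreated libraries thus goes against their inflammatory genes, and the groups are called untreated-labelled, 3SL-labelled and Pam3CSK4-labelled throughout. Every direction below rests on those labels.

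**Figure D1:**
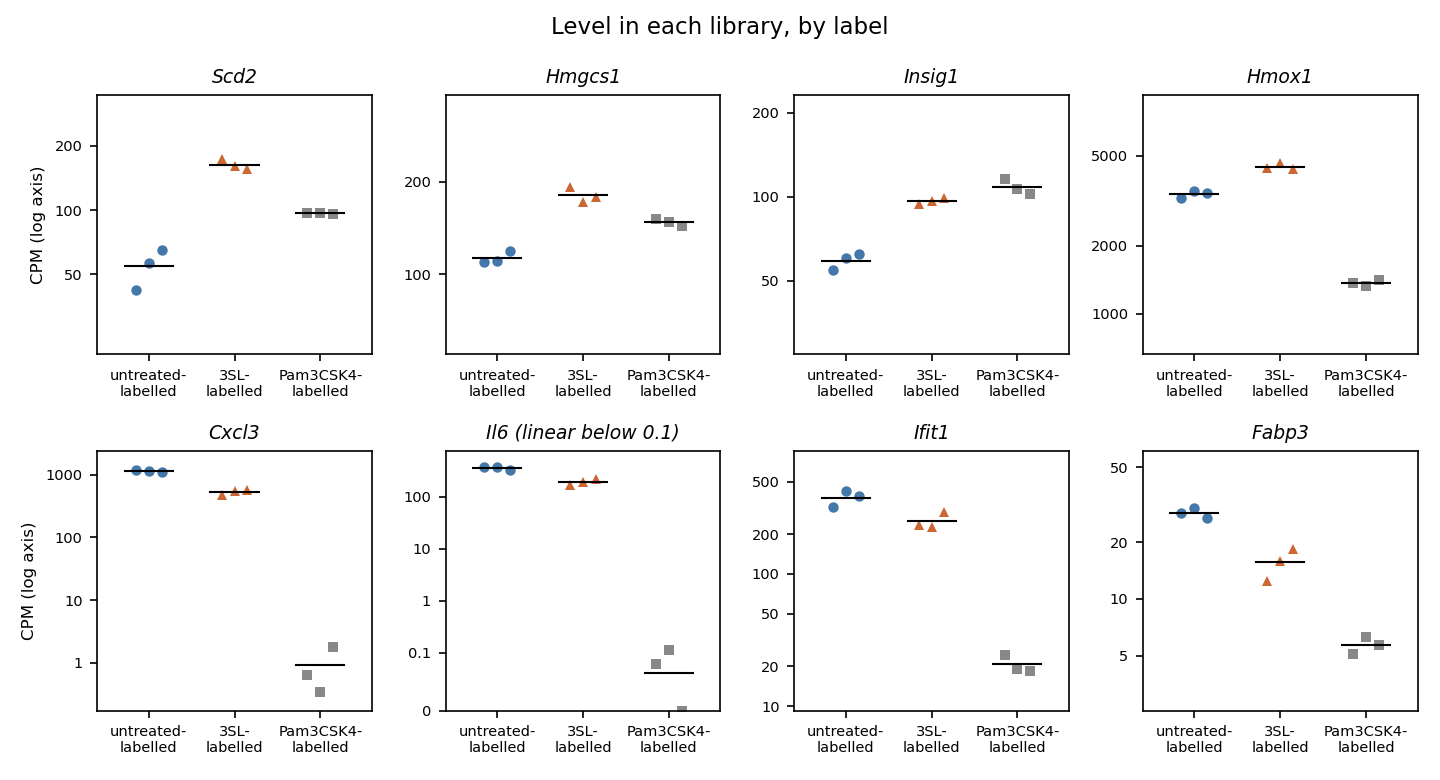
Level of 8 genes in each library, in CPM on a log axis (Il6 is linear below 0.1 CPM). Points are libraries, 3 to each labelled group, and black bars are group means. The untreated-labelled and 3SL-labelled libraries lie close together for Cxcl3, Il6, Ifit1 and Hmox1, and the Pam3CSK4-labelled libraries lie apart from both.

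The 6 libraries held between 7472482 and 43980309 counts. B2, at 43980309, had more than any other and A2plus, at 7472482, had the fewest, so B2 gives the most precise level within its group. Mitochondrially encoded genes took 1.03% to 1.15% of counts in the 6 libraries. Over all tested genes, the first principal component of the 6 libraries held 34.0% of the variance and separated the groups, with untreated-labelled libraries at 8.87 to 10.9 and 3SL-labelled libraries at -16.6 to -5.56. The chi-square per degree of freedom between libraries of the same compared group lay between 2.01 and 2.91, so no 2 libraries of a group agreed within sampling noise.

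Differences between the groups were small and numerous. Of 22001 genes in the table, 11469 passed the filter on low counts and entered the quasi-likelihood model of edgeR. At an adjusted p (Benjamini-Hochberg, over these genes) under 0.05, 439 genes were called higher in the 3SL-labelled libraries (3.83% of those tested) and 586 lower (5.11%), which is 8.94% in either direction. Scaling by library size alone, in place of TMM factors, gave 787 higher and 406 lower, so that 66.0% of calls were higher against 42.8%. Without B2 there were 270 higher and 356 lower, and without A2plus 306 and 378. The median size of a called change was 0.26 on the log2 scale. Only 109 called genes differed at least 1.5-fold (0.950% of tested genes), 57 of them higher (0.497%) and 52 lower (0.453%), and 20 differed at least 2-fold. The 3 libraries of one group lay entirely above or below the 3 of the other for 24.0% of tested genes, and for 965 of the 1025 called genes.

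Lipid synthesis genes made up much of the upper end of these differences, and inflammatory and interferon-stimulated genes much of the lower end. Of the 57 genes at least 1.5-fold higher, 22 (38.6%) belonged to the lists of sterol synthesis, SREBP regulation and fatty acid synthesis, which hold 69 tested genes. Of the 52 genes at least 1.5-fold lower, 20 (38.5%) belonged to the lists of cytokines, inflammatory effectors and interferon-stimulated genes, which hold 106 tested genes. The lists were drawn up with earlier results of these data known, so these shares describe the data and do not test it.

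**Figure D2:**
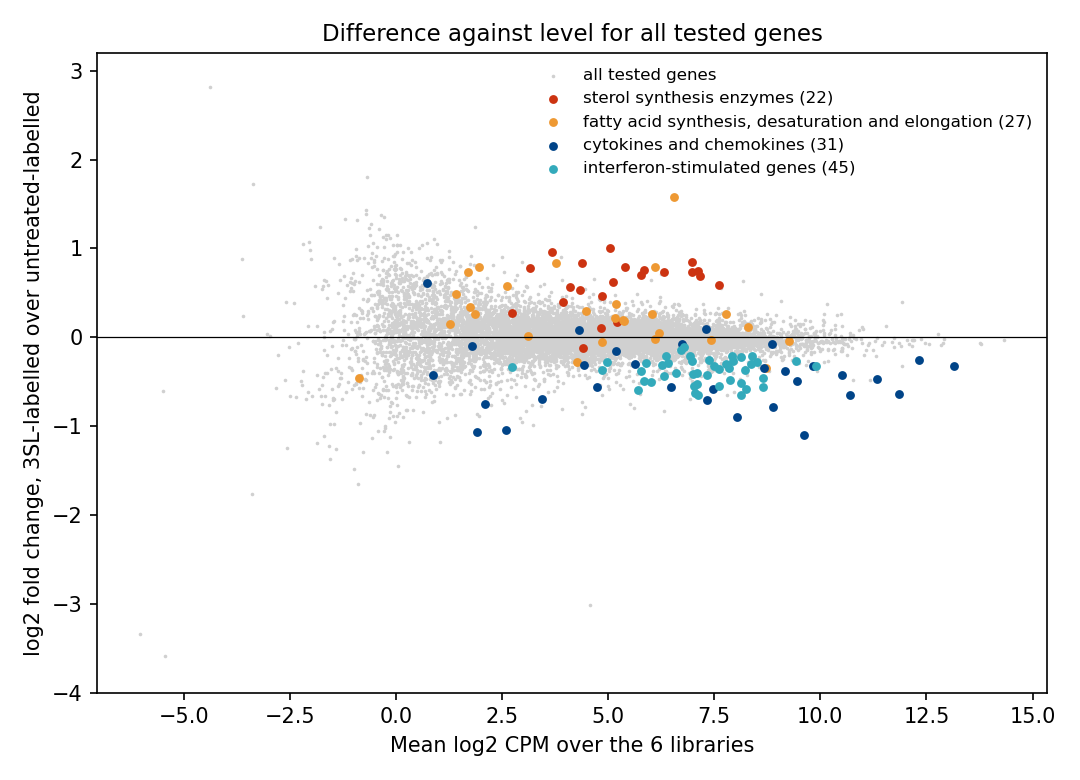
Difference between the groups (log2 fold change, 3SL-labelled over untreated-labelled, vertical axis) against the mean log2 CPM over the 6 libraries (horizontal axis) for the 11469 tested genes, 1 point to a gene. Sterol synthesis enzymes (red) lie mostly above 0, and cytokines (dark blue) and interferon-stimulated genes (light blue) mostly below it.

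Enzymes of cholesterol synthesis were higher in the 3SL-labelled libraries along almost the whole pathway. Of 22 tested enzymes, 18 were called higher (81.8%, against 3.83% of all tested genes) and none lower, with a median log2 difference of 0.69, where that of all tested genes was -0.0012. The counts were 17 or 18 in every alternative run. In 21 of the 22 genes the groups did not overlap, against 24.0% of all genes. By library, the median log2 ratio of the 22 genes to the untreated-labelled mean was 0.71 in A2plus, 0.61 in B2plus and 0.67 in C2plus, so all 3 contributed.

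At the head of the pathway, Hmgcs1, which makes HMG-CoA, stood at 109.7, 110.1 and 119 CPM in A2, B2 and C2 and at 192, 173 and 179 CPM in A2plus, B2plus and C2plus. All 3 of the 3SL-labelled libraries were above the highest untreated-labelled one. The log2 difference was 0.69 ± 0.045 (SE), with an adjusted p of 2.54e-11. Acat2, the cytosolic thiolase that supplies acetoacetyl-CoA, rose 1.94-fold, from 9.15 ± 0.304 to 17.96 ± 0.228 CPM (SD, n = 3; adjusted p = 1.57e-07). The kinases and the decarboxylase that turn mevalonate into isoprenoid units changed less, with log2 differences of 0.40 for Mvk, 0.56 for Pmvk and 0.62 for Mvd. Mvk was the one call that leaving out a library ended, at an adjusted p of 0.080 without A2plus.

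The later steps, from squalene to cholesterol, were higher too. Lss, the cyclase that closes the first sterol ring system, stood at 20.3, 24.3 and 25.005 CPM in the untreated-labelled and 53.4, 42.8 and 44.6 CPM in the 3SL-labelled libraries, a 2.003-fold rise (log2 1.002 ± 0.086, adjusted p = 3.37e-09). Cyp51, the lanosterol demethylase, rose from 86.2, 94.95 and 103 CPM to 179.9, 169.5 and 159.9 CPM (log2 0.85 ± 0.052, adjusted p = 7.44e-12). Msmo1, which removes methyl groups from the sterol ring, stood at 103, 107 and 112 against 178, 183 and 177 CPM (adjusted p = 1.32e-12). In each of these 3 genes every 3SL-labelled library exceeded every untreated-labelled one. Dhcr7, which acts at the end of the pathway, rose by 0.78 on the log2 scale. Further calls were Fdps (0.84), Fdft1 (0.79), Sc5d (0.75), Sqle (0.73), Hsd17b7 (0.70), Idi1 (0.53) and Nsdhl (0.47), all as log2 differences.

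Not every enzyme passed the test. Ggps1, which takes the pathway towards prenylation and away from sterols, was at 22.5 ± 1.57 and 20.2 ± 2.25 CPM (adjusted p = 0.503). The sterol reductases Tm7sf2 and Lbr, which act at the same step, had log2 differences of 0.27 and 0.11, and the isomerase Ebp one of 0.18, with adjusted p of 0.296, 0.425 and 0.13. The summed level of the 22 enzymes ran from 946 to 1057 CPM in the untreated-labelled libraries and from 1544 to 1637 CPM in the 3SL-labelled ones. In the Pam3CSK4-labelled libraries it ran from 1344 to 1399 CPM, between the other groups. The Pam3CSK4-labelled libraries thus held more of these messages than the untreated-labelled ones while their inflammatory genes were low.

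Promoters of these enzymes were read from RefSeq (mouse build GRCm38.p6), in a window from 250 bases before to 50 bases after each annotated start, and searched on both strands. Windows were found for 17 of the 22 tested enzymes. CCAAT, the box bound by the factor NF-Y, was present in 16 of 17 (94.1%), against 43.2% of tested genes with a window and 41.1% of all 27025 genes with one. The sterol regulatory element, searched only as the exact letters TCACNCCAC, was present in 1 of 17, Hmgcs1, against 1.44% of all genes. Sterol elements with other letters were not searched. The GC box GGGCGG was present in 15 of 17 (88.2%), against 68.8% of tested genes. CCAAT and sterol elements overlapped in 2 of the 145 windows that held both, and CCAAT and GC boxes in 108 of 4208. A match is a stretch of letters and was not tested as a binding site. Stretches of 110 bases are shown for 5 enzymes with called rises because each holds a CCAAT box within its promoter window, written 5′ to 3′ on the gene's strand with CCAAT matches in capitals and GC boxes left unmarked (ATTGG is CCAAT read from the other strand, and the sterol element of Hmgcs1 is in capitals too). They lie at chr10:76531488-76531597 (plus strand), chr5:4104698-4104807 (minus), chr7:143830104-143830213 (plus), chr8:64733579-64733688 (minus) and chr13:119690159-119690268 (plus), in the order given.
Lss: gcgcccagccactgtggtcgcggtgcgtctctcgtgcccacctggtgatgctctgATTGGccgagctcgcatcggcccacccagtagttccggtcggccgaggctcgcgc
Cyp51: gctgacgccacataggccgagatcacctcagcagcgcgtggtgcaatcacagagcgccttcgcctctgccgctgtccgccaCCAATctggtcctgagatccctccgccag
Dhcr7: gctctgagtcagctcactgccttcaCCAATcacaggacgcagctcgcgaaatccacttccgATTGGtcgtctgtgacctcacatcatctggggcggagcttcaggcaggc
Msmo1: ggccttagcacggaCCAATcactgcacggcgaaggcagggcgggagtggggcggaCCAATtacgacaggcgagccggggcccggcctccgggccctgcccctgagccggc
Hmgcs1: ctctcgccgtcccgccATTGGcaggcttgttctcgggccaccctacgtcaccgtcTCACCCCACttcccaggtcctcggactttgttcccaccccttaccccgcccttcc

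Of the regulators of SREBP and of lipoprotein uptake, 8 were higher and most of the processing machinery did not pass the test. These were 8 of 20 tested genes (40.0%, against 3.83% of all tested genes), with none called lower and 6 to 9 called higher in the alternatives run, with a median log2 difference of 0.10. Insig1, which retains the SREBP complex in the endoplasmic reticulum and is itself an SREBP target, rose from 54.4, 60.3 and 62.1 CPM in A2, B2 and C2 to 94.2, 96.8 and 98.7 CPM in A2plus, B2plus and C2plus (log2 0.72 ± 0.055, adjusted p = 4.31e-10). The groups did not overlap, and the Pam3CSK4-labelled libraries were higher than both, at 116, 106 and 102 CPM. Stard4, a cytosolic cholesterol carrier, rose by 0.65 on the log2 scale. Smaller rises were called for Aacs (0.41), which makes acetoacetyl-CoA from ketone bodies, the lipoprotein receptor Scarb1 (0.40), Srebf2 (0.26), which encodes SREBP2, and Srebf1 (0.22), which encodes SREBP1.

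The call of Srebf1 rested on single libraries. Its groups overlapped, at 68.1, 67.8 and 71.5 against 86.5, 83.6 and 71.3 CPM, and its adjusted p of 0.0136 became 0.052 without A2, 0.083 without B2, 0.11 without A2plus and 0.096 without B2plus. Genes of the processing steps showed little difference: Scap, the SREBP escort protein, had a log2 difference of -0.08, Mbtps1 and Mbtps2, the proteases that release SREBP, -0.02 and 0.08, and Insig2 -0.14. Mylip, a ubiquitin ligase induced by liver X receptors, was at 26.96, 26.1 and 30.2 against 18.5, 25.2 and 26.002 CPM (adjusted p = 0.214). The cholesterol exporters of the lysosome, Npc1 and Npc2, both had log2 differences of -0.06, and Tmem97, Rnf145, Nfyc, Lrp1 and Vldlr lay between -0.13 and 0.33 without passing the test. Npc1l1 and Pnpla3 did not pass the filter on low counts.

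Genes of fatty acid synthesis and desaturation were higher in part, and included the gene with the smallest p of all. Of 27 tested genes, 12 were called higher (44.4%, against 3.83%) and 1 lower (3.70%, against 5.11%), with a median log2 difference of 0.21. Scd2, a stearoyl-CoA desaturase (ENSMUSG00000025203, chromosome 19, positions 44293674 to 44306864, plus strand, GENCODE M21 on GRCm38), stood at 42.3, 56.8 and 65.3 CPM in A2, B2 and C2. In A2plus, B2plus and C2plus it stood at 172, 159.9 and 155 CPM, a 2.99-fold rise (log2 1.58 ± 0.078, adjusted p = 2.62e-13). Every 3SL-labelled library was more than 2-fold above every untreated-labelled one. The Pam3CSK4-labelled libraries lay between, at 96.4, 97.3 and 96.3 CPM. Its paralog Scd1 was low in level in both groups and not called, at 2.99 ± 0.354 and 3.83 ± 0.323 CPM (SD, n = 3, adjusted p = 0.687).

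Fasn, the fatty acid synthase, rose from 47.5, 53.1 and 56.6 CPM to 100.4, 86.7 and 85.9 CPM (log2 0.79 ± 0.062, adjusted p = 6.82e-10), with no overlap. Acsl3, which activates fatty acids for lipid droplets, stood at 10.2, 10.5 and 9.85 against 21.2, 18.5 and 15.8 CPM (log2 0.83 ± 0.10, adjusted p = 1.31e-06). Acsl3 overlaps Utp14b on chromosome 1 on the same strand, and Utp14b had a log2 difference of 0.85 too. Counting cannot separate reads that fall where they overlap. Acly, which makes cytosolic acetyl-CoA, and Slc25a1, the mitochondrial citrate exporter, rose by 0.26 and 0.26, and the desaturase Fads1 by 0.38, all on the log2 scale. The one gene called lower was Acsl1, an acyl-CoA synthetase linked to macrophage inflammation, at 488, 468 and 483 against 382, 384 and 366 CPM (log2 -0.35 ± 0.034, adjusted p = 4.62e-08).

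The other 6 calls of this list were low in level or small, and leaving out 1 library ended each of them. Fads2 (log2 0.79) had an adjusted p of 0.078 without B2 and 0.063 without C2plus, and Elovl6 (log2 0.73), an elongase, 0.11 and 0.082. Acss2 (log2 0.58), the acetyl-CoA synthetase, had 0.094 without A2, 0.086 without A2plus and 0.0927 without C2plus. Acaca (0.29), Elovl5 (0.21) and Mid1ip1 (0.19) lost their calls without any 1 of several libraries, among them A2, B2 and A2plus. Without B2 and again without C2plus, 7 genes of the list were called higher in place of 12. The 14 genes that did not pass the test had log2 differences between -0.46 (Elovl7) and 0.48 (Lpin1), with Acsl4, Acsl5, Elovl1, Fads3, Gpam, Agpat2, Tecr, Hacd1, Hacd2, Hacd3 and Lpcat3 between them. Acacb, Elovl3, Scd3, Mlxipl and Thrsp did not pass the filter.

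**Figure D3:**
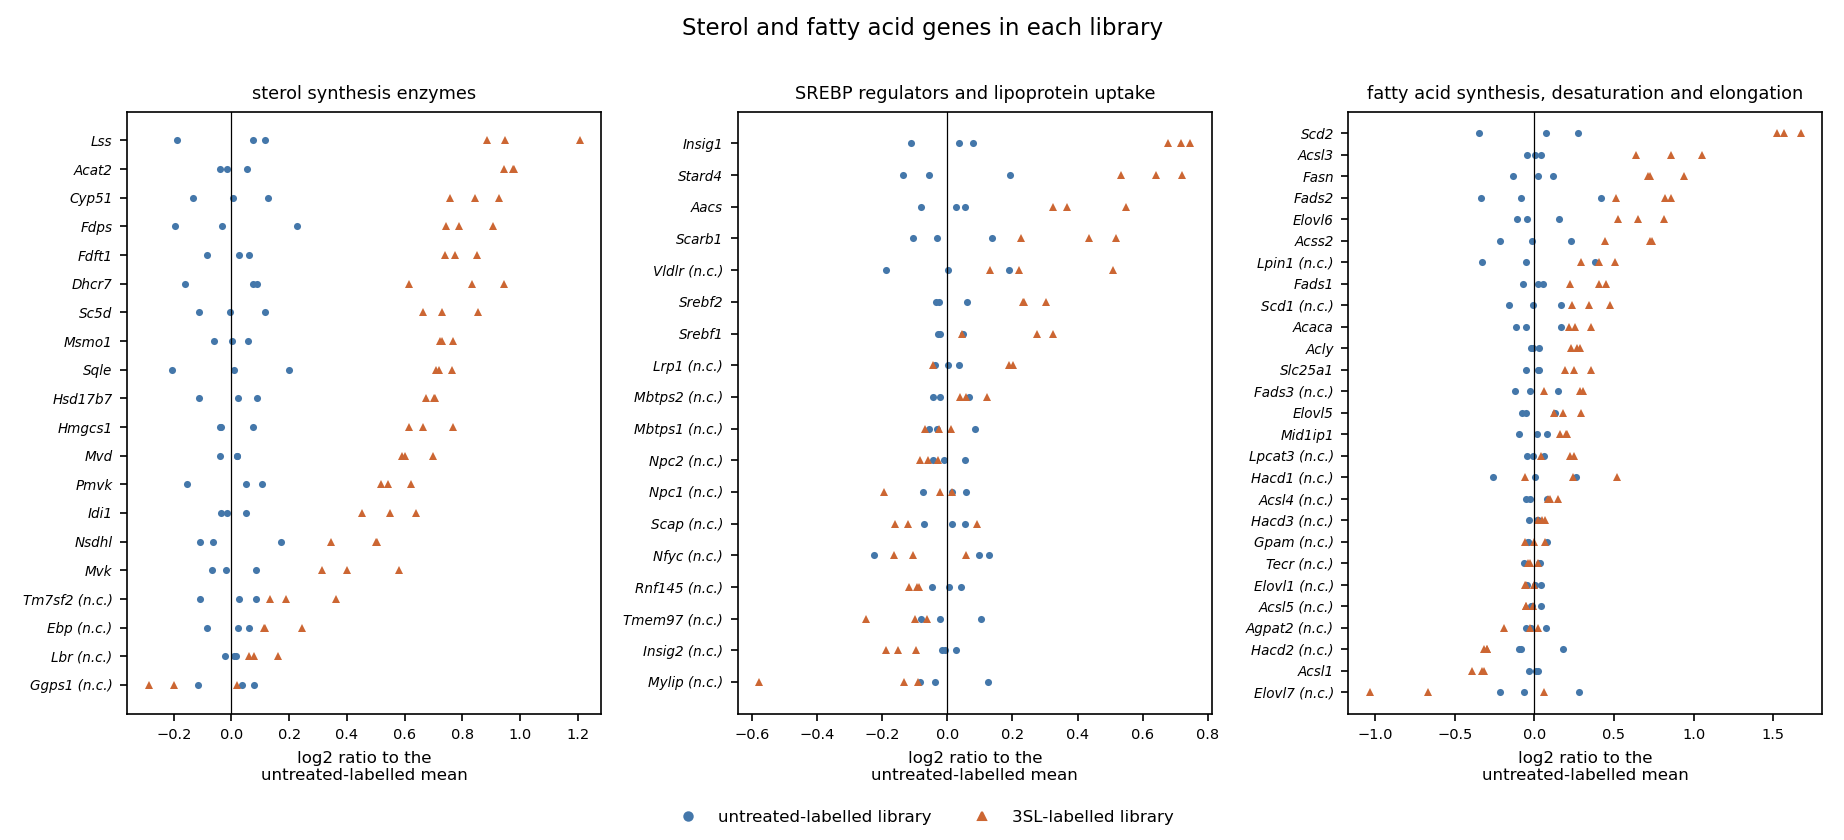
Genes of the 3 lipid lists in each of the 6 libraries, as the log2 ratio to the mean of the untreated-labelled libraries (0.1 CPM added before logs). Circles are untreated-labelled and triangles 3SL-labelled libraries, and n.c. marks genes that were not called. In every sterol synthesis enzyme shown except Ggps1, all 3 triangles lie to the right of the circles.

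Other genes of lipid handling moved differently from the synthesis genes. Of 26 tested genes of lipid uptake, storage and breakdown, 1 was called higher (3.85%, against 3.83%) and 6 lower (23.1%, against 5.11%). The median log2 difference was -0.02. Without B2, 3 were called lower, and without A2plus, 3. Fabp3, a fatty acid binding protein, fell from 28.5, 30.3 and 26.8 CPM to 12.5, 15.8 and 18.5 CPM (log2 -0.87 ± 0.10, adjusted p = 7.03e-07). Ch25h, which makes the oxysterol 25-hydroxycholesterol, fell from 29.9, 29.3 and 26.7 CPM to 18.1, 14.97 and 17.7 CPM (log2 -0.78 ± 0.11, adjusted p = 1.17e-05). In both genes the highest 3SL-labelled library was below the lowest untreated-labelled one. The oxidised lipoprotein receptor Olr1 fell by -0.53 on the log2 scale. The scavenger receptor Cd36 was at 1779.8 ± 26.4 against 1769 ± 15.97 CPM (SD, n = 3; adjusted p = 0.896).

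Most targets of the liver X receptors, which sense oxysterols, did not pass the test. Of 21 tested genes, 3 were called higher (14.3%, against 3.83% of all tested genes) and 2 lower (9.52%, against 5.11%). The median log2 difference of the 21 genes was -0.0013. The 3 higher ones were the lipogenic genes Scd2, Fasn and Srebf1, which SREBP also drives. Abcg1, a cholesterol exporter, was lower at 24.2, 24.7 and 27.02 against 20.2, 19.4 and 21.03 CPM (log2 -0.31 ± 0.094, adjusted p = 0.0332), and Nr1h3, which encodes liver X receptor alpha, at 112, 119 and 116 against 106, 100.5 and 102 CPM (log2 -0.18 ± 0.048, adjusted p = 0.0179). Both calls were lost without B2, at adjusted p of 0.079 for Abcg1 and 0.13 for Nr1h3, and without B2plus, at 0.13 and 0.076. Abcg1 was also lost without C2 (0.075) and A2plus (0.0904), and Nr1h3 without C2plus (0.054). The main cholesterol exporter Abca1 was at 662, 699 and 731 against 648, 626 and 727 CPM (adjusted p = 0.47), with overlapping groups.

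Cytokine and chemokine genes were lower in the 3SL-labelled libraries, though still far above the Pam3CSK4-labelled ones. Of 31 tested genes, 23 were called lower (74.2%, against 5.11% of all tested genes) and none higher, with a median log2 difference of -0.43. The count of lower calls was 20 to 23 in every alternative run, and scaling by library size alone also called 1 higher. By library, the median log2 ratio to the untreated-labelled mean was -0.50 in A2plus, -0.46 in B2plus and -0.36 in C2plus. Among the 3SL-labelled libraries A2plus was the lowest in 23 of the 31 genes and C2plus the highest in 23. The summed level of the list was 32273 to 34723 CPM in the untreated-labelled, 23593 to 26409.7 CPM in the 3SL-labelled and 1243 to 1385 CPM in the Pam3CSK4-labelled libraries. In bulk RNA, fewer responding cells and less message per cell cannot be told apart.

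Cxcl3, whose levels are given above, had a log2 difference of -1.10 ± 0.057, a 2.15-fold fall (adjusted p = 3.74e-13). It lies on chromosome 5, from 90786103 to 90789600 on the plus strand. Its neighbours Cxcl1 and Cxcl2, which attract neutrophils through the same receptor, fell too. Cxcl1 stood at 652, 633 and 593 against 336, 363 and 391 CPM (log2 -0.78 ± 0.046, adjusted p = 5e-12) and Cxcl2 at 2249, 2131 and 1933 against 1259, 1317 and 1442 CPM (log2 -0.65 ± 0.045, adjusted p = 5.7e-11). No 3SL-labelled library reached the lowest untreated-labelled one in any of the 3 genes. Il6 fell from 373, 374 and 328 CPM to 167, 192 and 216 CPM (log2 -0.90 ± 0.059, adjusted p = 2.54e-11). The Pam3CSK4-labelled libraries held 0.0799, 0.115 and 0 CPM of Il6.

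Tnf and Il1b changed less in proportion. Tnf stood at 1729.8, 1728 and 1649 CPM in A2, B2 and C2 and at 1218, 1249 and 1330.5 CPM in A2plus, B2plus and C2plus (log2 -0.43 ± 0.032, adjusted p = 3.47e-10). Il1b stood at 10252, 10550.4 and 9653 and 7489, 8346 and 8554 CPM (log2 -0.32 ± 0.044, adjusted p = 1.23e-05), without overlap, though DESeq2 gave an adjusted p of 0.28 for it. Il12a, a subunit of interleukin-12, was low in level and fell from 10.6, 8.94 and 6.25 CPM to 4.92, 3.82 and 4.27 CPM (log2 -1.05 ± 0.18, adjusted p = 0.000274). Ccl2, which attracts monocytes, fell by -0.49 on the log2 scale. The anti-inflammatory cytokine Il10 did not follow, at 18.4, 21.8 and 17.6 against 22.5, 19.2 and 21.3 CPM (log2 0.08 ± 0.10, adjusted p = 0.733). The other 7 genes that did not pass the test lay between -0.43 and 0.61, and 5 of the 36 listed genes, Il23a, Il33, Lif, Cxcl11 and Ifnb1, did not pass the filter.

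The kappaB letters GGGANNTTCC, the site bound by NF-kB dimers, were present in 6 of the 19 tested cytokine genes with a promoter window (31.6%), against 1.63% of all genes with one. They overlapped a GC box in 17 of the 163 windows that held both. Stretches from 4 called genes are shown with the match in capitals, since the 3 Cxcl genes share the same letters there. They lie at chr5:90785974-90786083, chr5:90891120-90891229, chr5:90903748-90903857 and chr5:30013004-30013113, all on the plus strand, in the order given.
Cxcl3: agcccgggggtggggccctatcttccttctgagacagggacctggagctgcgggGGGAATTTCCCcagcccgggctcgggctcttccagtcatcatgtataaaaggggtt
Cxcl1: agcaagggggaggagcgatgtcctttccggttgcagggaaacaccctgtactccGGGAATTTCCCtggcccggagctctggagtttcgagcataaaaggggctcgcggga
Cxcl2: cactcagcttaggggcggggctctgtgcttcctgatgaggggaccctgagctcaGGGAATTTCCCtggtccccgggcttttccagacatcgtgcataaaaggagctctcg
Il6: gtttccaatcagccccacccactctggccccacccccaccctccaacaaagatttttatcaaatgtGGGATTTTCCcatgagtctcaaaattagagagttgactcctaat

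Of 30 tested inflammatory enzyme and effector genes, 16 were called lower (53.3%, against 5.11% of all tested genes) and 1 higher (3.33%, against 3.83%). The other 13 were called neither higher nor lower, and the median log2 difference of the list was -0.22. Nos2, the inducible nitric oxide synthase, fell from 157, 167 and 142 CPM to 85.4, 92.8 and 111 CPM (log2 -0.69 ± 0.065, adjusted p = 2.21e-08). Ptgs2, the inducible cyclooxygenase, fell from 2117, 2083 and 1992 CPM to 1332, 1465 and 1635 CPM (log2 -0.48 ± 0.046, adjusted p = 2.21e-08). In both genes A2plus was the lowest and C2plus the highest of the 3SL-labelled libraries, and none reached the untreated-labelled range. Clec4e, the receptor Mincle, fell by -0.49, Thbs1, thrombospondin, by -0.61, F10, coagulation factor X, by -0.50, and Acod1, which makes itaconate, by -0.33 on the log2 scale. The gene called higher was Mmp9, a secreted gelatinase, which rose from 165, 163 and 177 CPM to 259, 244 and 235 CPM (log2 0.55 ± 0.051, adjusted p = 1.68e-08).

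Genes of NF-kB and Toll-like receptor signalling were lower where they were called, with small median differences. Of 29 genes of the NF-kB pathway and its feedback inhibitors, 9 were called lower (31.03%, against 5.11% of all tested genes) and none higher. Their median was -0.09. The count was 5 without A2, 5 without B2, 4 without A2plus and 4 with scaling by library size alone, which also called 1 higher. Malt1, a paracaspase that activates NF-kB, fell by -0.28, Traf1 by -0.32, and the subunits Nfkb1 and Nfkb2 by -0.18 and -0.19. Of 22 Toll-like receptor and adaptor genes, 7 were called lower (31.8%, against 5.11%) and none higher, with a median of -0.097. The count was 4 without any 1 of B2, A2plus and B2plus. Tlr2, the receptor for Pam3CSK4, stood at 1207, 1202 and 1183 against 977, 979 and 1013 CPM (log2 -0.28 ± 0.030, adjusted p = 2.35e-07) and at 51.6, 51.2 and 54.5 CPM in the Pam3CSK4-labelled libraries. Tlr7, a receptor for single-stranded RNA, fell by -0.40 and Cd14, the co-receptor, by -0.14.

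Interferon-stimulated genes were lower as a group by a modest amount. Of 45 tested genes, 39 were called lower (86.7%, against 5.11%) and none higher, with a median log2 difference of -0.36, and all 45 had a negative difference. The count was 30 without B2 and at least 28 in the alternatives run. Gbp5, a guanylate-binding protein that acts on bacteria-containing vacuoles, stood at 334, 388 and 348 CPM in A2, B2 and C2 and at 192, 219.9 and 269 CPM in A2plus, B2plus and C2plus (log2 -0.65 ± 0.070, adjusted p = 2.41e-07). Gbp3, of the same family, fell from 167, 201 and 156 CPM to 96.3, 114 and 125 CPM (log2 -0.65 ± 0.074, adjusted p = 5.6e-07). Ifit1, which binds viral RNA lacking a host cap, fell from 320.2, 424 and 390.0 CPM to 236, 227 and 295 CPM (log2 -0.58 ± 0.080, adjusted p = 1.14e-05). Gbp2 and the DNA sensor gene Ifi205 fell by -0.46 and -0.48. In these 5 genes the groups did not overlap.

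Within each group 1 library was the highest in nearly all of these genes. B2 was the highest untreated-labelled library in 45 of 45 genes and C2plus the highest 3SL-labelled one in 44 of 45. The lowest library varied, A2 in 20 and C2 in 25 genes, and A2plus in 29 and B2plus in 16. By library the median log2 ratio of the list to the untreated-labelled mean was -0.06 in A2, 0.14 in B2 and -0.08 in C2, and -0.45 in A2plus, -0.43 in B2plus and -0.20 in C2plus. C2plus was therefore nearest to the untreated-labelled libraries, and in 30 of the 45 genes the groups did not overlap (against 24.0% of all genes). Summed over the list, the level was 9766, 11316 and 9912 CPM in A2, B2 and C2 and 7449.9, 7525 and 9021 CPM in A2plus, B2plus and C2plus. B2 is also the deepest library. With B2 thinned to the total of A2, 426 of all tested genes were called higher and 580 lower, against 439 and 586. The rank of B2 in these genes was not recomputed on thinned counts.

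The interferon-stimulated response element GAAANNGAAA was present in 21 of the 34 tested interferon-stimulated genes with a promoter window (61.8%), against 3.99% of all genes with one. Its overlap with CCAAT boxes occurred in 8 of the 443 windows that held both. Stretches of 3 called genes are shown because the element is repeated or extended there in Gbp3 and Ifit1 and single in Gbp5 (runs of TTTC are the element read from the other strand). They lie at chr3:142496714-142496823, chr3:142559934-142560043 and chr19:34640749-34640858, all on the plus strand.
Gbp5: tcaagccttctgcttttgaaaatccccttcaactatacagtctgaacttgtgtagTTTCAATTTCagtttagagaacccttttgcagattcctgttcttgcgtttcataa
Gbp3: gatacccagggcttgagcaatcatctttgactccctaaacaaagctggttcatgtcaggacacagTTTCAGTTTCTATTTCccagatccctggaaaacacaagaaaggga
Ifit1: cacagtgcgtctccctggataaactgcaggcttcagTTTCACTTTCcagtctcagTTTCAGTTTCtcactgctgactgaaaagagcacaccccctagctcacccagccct

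**Figure D4:**
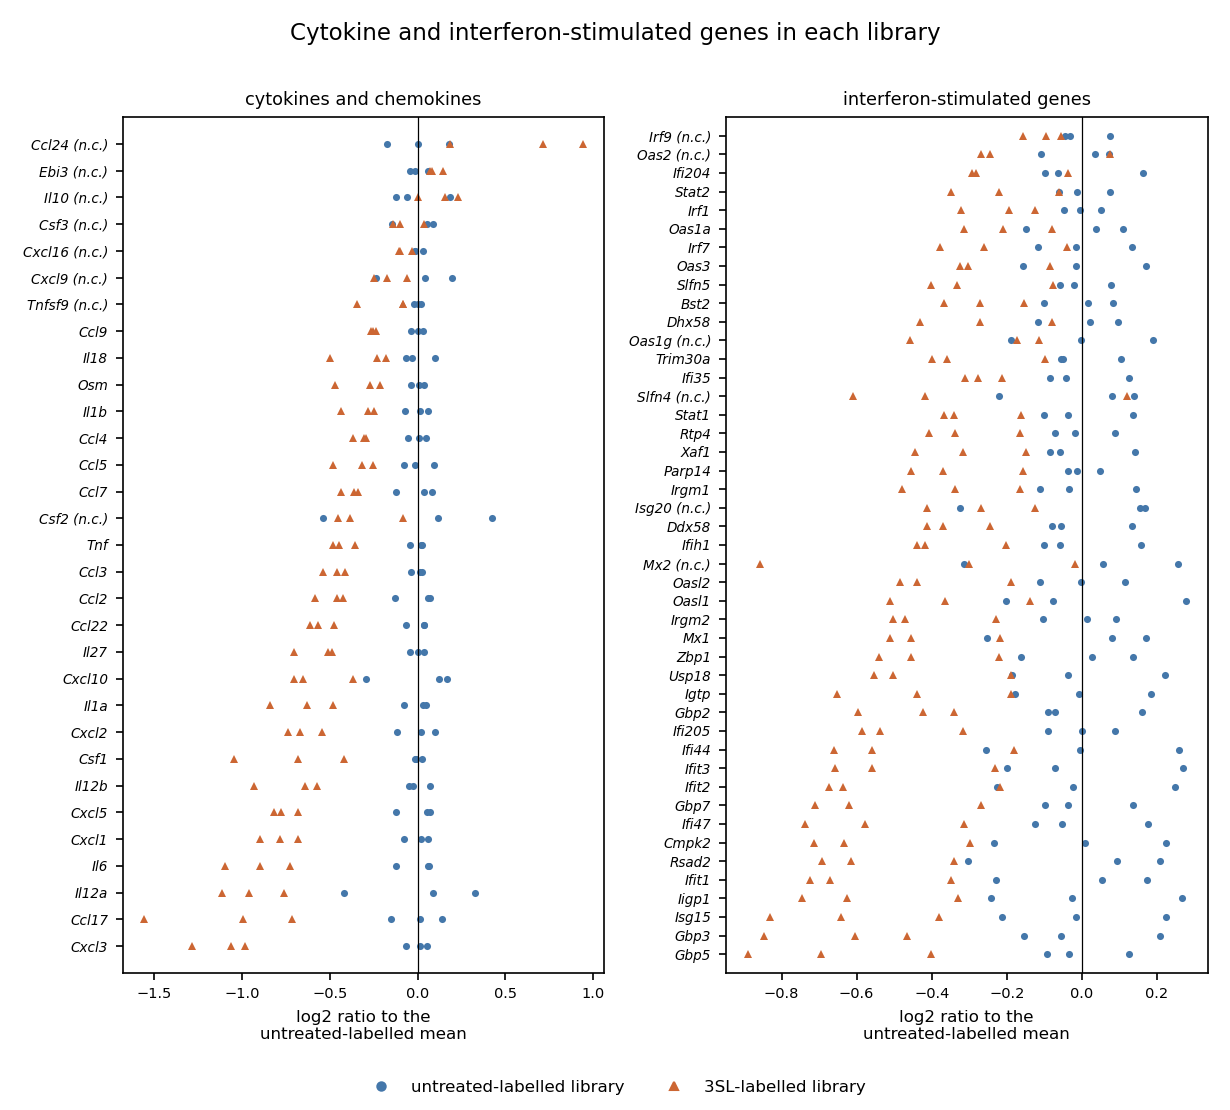
Each tested cytokine gene (left) and interferon-stimulated gene (right) in each of the 6 libraries, as the log2 ratio to the mean of the untreated-labelled libraries (0.1 CPM added before logs). Circles are untreated-labelled and triangles 3SL-labelled libraries, and n.c. marks genes that were not called. Triangles lie to the left of 0 in most rows, and on the right-hand side 1 triangle in almost every row, C2plus, lies nearer to the circles.

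Of 19 genes of MHC class I presentation, 13 were called lower (68.4%, against 5.11% of all tested genes) and 2 higher (10.5%, against 3.83%). The median log2 difference was -0.23, and 6 were called lower without B2. The peptide transporters Tap1 and Tap2 fell by -0.35 and -0.33 and the immunoproteasome subunit Psmb8 by -0.26. The non-classical class I gene H2-Q4 fell by -0.29, although members of this family are nearly identical in sequence and their reads may be divided among them. The 2 higher ones, Calr (0.19) and Pdia3 (0.15), are chaperones of the endoplasmic reticulum that also belong to the stress list below. Of 15 genes of MHC class II and costimulation, 5 were called lower (33.3%, against 5.11%) and none higher, with a median of -0.27. Cd83, a maturation marker, fell from 34.3, 33.001 and 33.7 CPM to 22.7, 21.7 and 24.9 CPM (adjusted p = 8.25e-05), H2-Ab1 by -0.44, Icosl by -0.40, Cd40 by -0.28 and Cd274, which encodes PD-L1, by -0.27 on the log2 scale.

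Of 28 tested genes of the unfolded protein and integrated stress responses, 13 were called higher (46.4%, against 3.83%) and 2 lower (7.14%, against 5.11%). The share called lower was near that of all tested genes. The other 13 were called neither higher nor lower, and the median of the list was 0.16. Hyou1, a chaperone of the endoplasmic reticulum, stood at 168, 169 and 174 CPM in A2, B2 and C2 and at 217, 212 and 215 CPM in A2plus, B2plus and C2plus (log2 0.33 ± 0.037, adjusted p = 3.17e-07). Hspa5, the chaperone BiP, stood at 1205, 1266 and 1201 against 1420.2, 1464 and 1493 CPM (log2 0.25 ± 0.029, adjusted p = 6.72e-07). The groups did not overlap in either gene. Hsp90b1, Pdia4 and Pdia6 rose by 0.26, 0.36 and 0.25. The 2 lower genes belong to the integrated stress response: Atf4, its main transcription factor (log2 -0.13), and Ppp1r15a, which ends it (log2 -0.23). Without B2 neither was called, at adjusted p of 0.0926 and 0.107, nor without A2plus, at 0.11 for each, and Atf4 was also lost without A2 (0.152) and without C2plus (0.0992).

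Of 25 tested antioxidant genes driven by NRF2, 11 were called higher (44.0%, against 3.83%) and 3 lower (12%, against 5.11%). The other 11 were called neither higher nor lower, and the median of the list was 0.11. Without A2, 8 were called higher, and without B2, 1 was called lower. Hmox1, heme oxygenase 1, stood at 3260.1, 3495 and 3415 CPM in A2, B2 and C2 and at 4419, 4627 and 4353 CPM in A2plus, B2plus and C2plus (log2 0.40 ± 0.030, adjusted p = 3.47e-10). Gclm and Gclc, the subunits of the enzyme that limits glutathione synthesis, rose by 0.41 and 0.39, and Srxn1, sulfiredoxin, by 0.26. For these 4 genes the groups did not overlap. The 3 lower genes were Gpx1 (-0.20), Txn1 (-0.16) and Nfe2l2 (-0.10), which encodes NRF2 itself. Txn1 was not called without B2 (adjusted p 0.075), and Nfe2l2 not without any 1 of A2 (0.14), B2 (0.050), C2 (0.11) and A2plus (0.21), among others. Of 18 genes of iron and heme, 4 were called higher (22.2%, against 3.83%) and 3 lower (16.7%, against 5.11%). The higher ones included the iron exporter Slc40a1 (0.26) and the heme transporter Slc48a1 (0.15). The lower ones were ceruloplasmin Cp (-0.33), the transferrin receptor Tfrc (-0.23) and Ncoa4 (-0.27), the ferritin autophagy receptor.

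Receptors and enzymes of sialic acid, listed because the second agent is named 3SL, were lower where they changed. Of 31 tested genes, 9 were called lower (29.03%, against 5.11%) and none higher, with a median of -0.08, and 7 to 9 in every alternative run. St8sia4, which adds polysialic acid, stood at 106, 105 and 109.6 CPM against 68.7, 69.1 and 74.5 CPM (log2 -0.59 ± 0.053, adjusted p = 7.9e-09). St3gal3, a sialyltransferase, fell from 85.4, 88.4 and 85.9 CPM to 59.4, 62.2 and 66.1 CPM (log2 -0.47 ± 0.062, adjusted p = 6.96e-06). In both genes the groups stood apart. The inhibitory sialic acid receptor Cd33 fell by -0.26 and the galectins Lgals3 and Lgals9 by -0.20 and -0.28. Siglech, near the lower end of detection, was at 2.22, 1.79 and 1.80 against 0.562, 0.880 and 1.02 CPM, and its call was lost without A2 (adjusted p 0.0964), B2 (0.0703), A2plus (0.145), B2plus (0.0867) or C2plus (0.05005). The other 22 genes did not pass the test. Of 32 lysosome genes, 7 were called lower (21.9%, against 5.11%) and none higher, with a median of -0.06. The protease Ctsk fell by -0.59 and Ctsl and Ctsz by -0.16 and -0.14; the count was 4 without A2plus and 3 with scaling by library size alone.

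Of 22 immediate-early transcription factors, 6 were called lower (27.3%, against 5.11% of all tested genes; 3 without B2) and 2 higher (9.09%, against 3.83%; 1 without A2). The higher ones were Fos, which rose from 44.5, 41.3 and 43.9 CPM to 62.8, 58.6 and 59.5 CPM (log2 0.49 ± 0.070, adjusted p = 1.97e-05), and Zfp36 (0.15), which destabilises cytokine messages. Zfp36 was not called without A2, at an adjusted p of 0.061. Of 14 tested genes of MAP kinase phosphatases and sprouty proteins, 3 were called higher (21.4%, against 3.83%) and 2 lower (14.3%, against 5.11%). Their median log2 difference was 0.04, and without A2, 1 was called higher and 1 lower. Dusp1, a phosphatase that turns off MAP kinases, was among the higher ones (0.32). Of 31 glycolysis and hypoxia genes, 4 were called higher (12.9%, against 3.83%) and 2 lower (6.45%, against 5.11%). Scaling by library size alone called 8 higher and none lower. Without A2, 2 were called higher and 1 lower, without B2, 1 was lower, and without C2, A2plus or B2plus none was lower. Without any 1 of the Pam3CSK4-labelled libraries, which share the estimate of spread, 1 was lower. Of 25 genes of the tricarboxylic acid cycle, 2 were called higher (8%, against 3.83%), Idh1 (0.28) and Acly. None of 30 nuclear-encoded respiratory chain genes was called, where 8.94% of all tested genes were. Of 39 cell cycle genes, 3 were called higher (7.69%, against 3.83%) and 1 lower (2.56%, against 5.11%), with a median of 0.05. Without B2, 1 was called higher and none lower, without A2plus none was lower, and without A2 or C2plus 2 were lower. Ccnd1, cyclin D1, was at 21.2, 19.4 and 19.8 against 31.7, 25.1 and 22.3 CPM (log2 0.37 ± 0.089, adjusted p = 0.0061), a call lost without B2 (0.066) and without A2plus (0.0839). Of 54 ribosomal protein genes, 8 were called lower (14.8%, against 5.11%), and 1 without B2, 1 without A2plus, 3 without A2, 4 without C2plus, 14 without B2plus and 15 without C2.

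**Figure D5:**
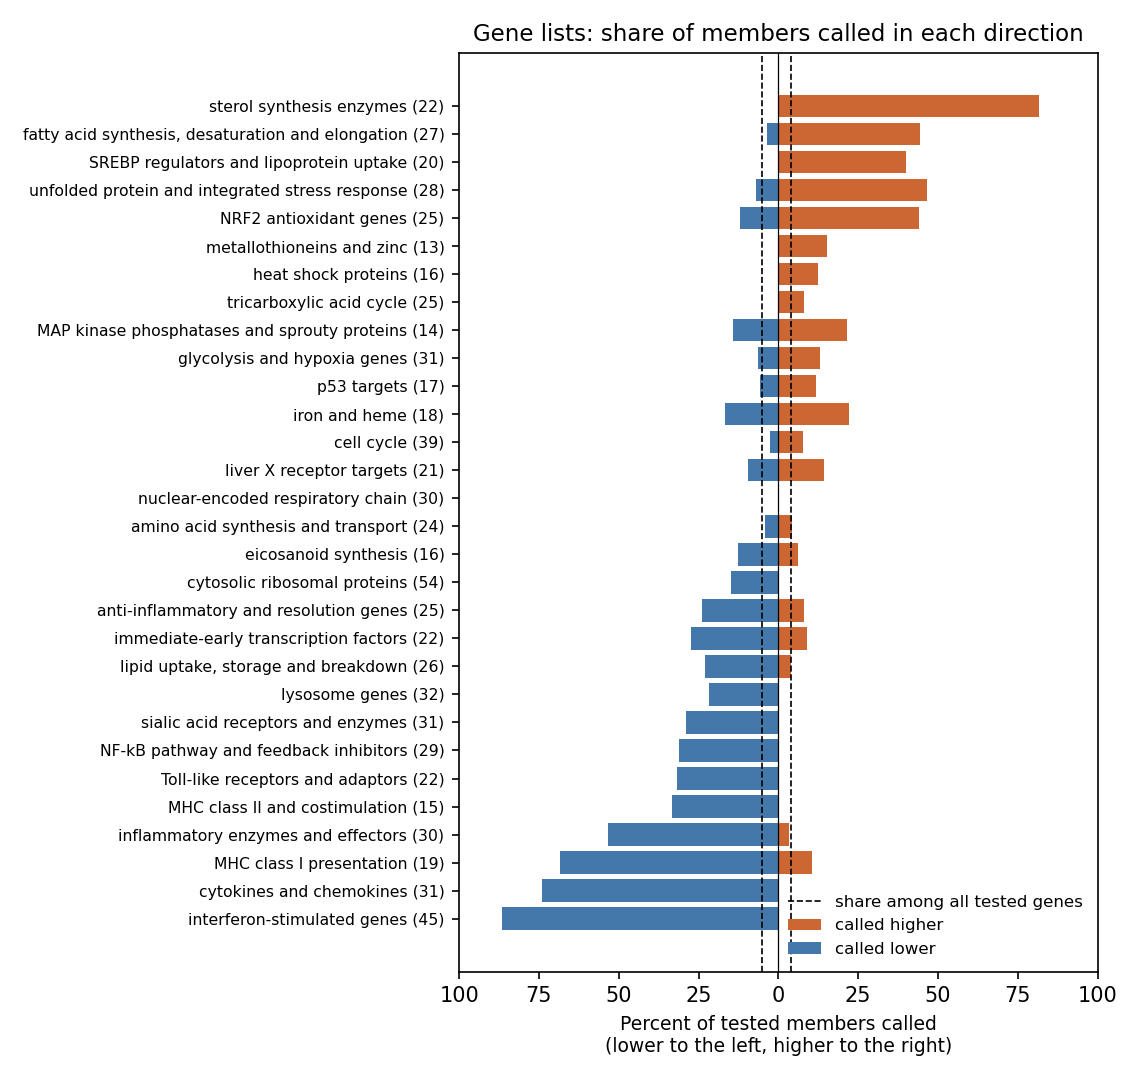
Percent of the tested members of each gene list called higher (right, orange) or lower (left, blue) in the 3SL-labelled libraries, with the number tested in brackets. Dashed lines mark the share of all tested genes called, 3.83% higher and 5.11% lower. Sterol synthesis enzymes reach 81.8% higher and interferon-stimulated genes 86.7% lower.

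Among the 15 largest rises and 15 largest falls of genes of at least moderate level, those on no list above were as follows. Lrp8, the apolipoprotein E receptor 2, rose from 11.2, 10.2 and 11.1 CPM to 21.3, 19.5 and 19.4 CPM (log2 0.91 ± 0.091, adjusted p = 7.34e-08). Nxpe5, Utp14b and Syt1, which encodes a synaptotagmin, were low in level and rose by 0.90, 0.85 and 0.82. The other 11 of the 15 rises were sterol and fatty acid synthesis genes described above. Among the falls, Ccrl2, a chemerin-binding receptor, went from 105, 112 and 100.3 CPM to 54.5, 59.4 and 64.8 CPM (log2 -0.83 ± 0.061, adjusted p = 2.15e-10), and Vcam1, an adhesion molecule, from 59.9, 66.8 and 67.4 CPM to 30.3, 39.8 and 40.4 CPM (log2 -0.79 ± 0.078, adjusted p = 4.62e-08). Neither gene had overlapping groups. Adgre4 (-0.99), Inhba (-0.95), the activin A subunit, Tnfsf15 (-0.91), Ly75 (-0.83), Cd200 (-0.80) and Cish (-0.77), a suppressor of cytokine signalling, fell at levels under 25 CPM.

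Lyz1, a lysozyme gene, had a fitted log2 difference of -3.02 ± 0.57 (adjusted p = 0.000632). It stood at 195, 43.3 and 17.6 CPM in A2, B2 and C2 and at 10.4, 10.9 and 10.6 CPM in A2plus, B2plus and C2plus. A2 alone was thus far above the rest. Limma voom gave an adjusted p of 0.063. Its neighbour Lyz2 is nearly identical in sequence, so the division of reads between them is uncertain.

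Markers of macrophages were present and close in the groups, and those of other cells were at low levels. The summed level of 20 macrophage markers, all tested, was 32250.0 to 32949 CPM in the untreated-labelled and 31246 to 32028 CPM in the 3SL-labelled libraries. Of these, 4 were called higher (20%, against 3.83% of all tested genes), among them Csf1r (0.10), Itgam (0.18) and Cebpa (0.40). A further 2 were called lower (10%, against 5.11%), Cd68 (-0.11) and Cd14. Without A2plus 2 were called higher, and 4 were called lower without B2plus. Cd68 was not called without C2 (adjusted p 0.055) or C2plus (0.063), and Csf1r not without B2 (0.11) or A2plus (0.083). Of 15 neutrophil and progenitor markers, 14 were tested and 2 called lower (14.3%, against 5.11%), S100a8 (-0.27) and S100a9 (-0.35). The list summed to 943 to 965 CPM against 783 to 864 CPM. Erythroid, megakaryocyte and mast cell markers, 4 of 13 tested, summed to 503 to 545 CPM against 388 to 437 CPM, almost all of it Pf4, which fell by -0.38. Pf4 was the only 1 of these 4 that was called (25%, against 5.11%).

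The other marker lists were lower still. Dendritic cell markers, 7 of 12 tested, summed to 346 to 381 CPM against 303 to 335 CPM, of which the interferon-stimulated gene Bst2 gave 272 ± 17.2 against 226 ± 16.7 CPM (SD, n = 3). Of the 7, 2 were called lower (28.6%, against 5.11%), Bst2 and Siglech, with 1 called lower without A2 and 1 without B2. Flt3, Zbtb46 and Clec9a, which define dendritic cells, did not pass the filter. Lymphocyte markers, 3 of 14 tested, summed to 49.4 to 57.5 CPM against 44.996 to 48.2 CPM with none called. Stromal and endothelial markers, 4 of 12 tested, summed to 19.2 to 23.7 CPM against 16.3 to 20.01 CPM. Of these 4 genes, 1 was called lower (25%, against 5.11%), and none without B2. The exact permutation test over samples gave p = 0.1 for each of these sums except the stromal one, at 0.2, and 0.1 is the smallest p that 3 against 3 can give. The sums of all 5 lists of other cell types moved downward with the inflammatory genes. The macrophage sum did too, without overlap, at p = 0.1 in the same exact test. The part of these shifts in the results was not tested. Mitochondrially encoded messages, 11 of 13 tested, had 2 genes called lower (18.2%, against 5.11%), 4 without B2 and 1 without C2. Their median log2 difference was -0.10.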

How the data were processed

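The authors deposited a table of read counts per gene for all libraries. RNA was isolated with TRIzol and libraries were made with the NEBNext Ultra RNA kit, per the labels' protocols. The submitters' processing notes name HISAT2 2.1.0, featureCounts from Subread, and the human build hg38, whereas the gene identifiers are those of mouse; the build, annotation and strand setting used for counting are therefore unsettled. A further 15 columns matched no sample analysed here and were not used.

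Genes were filtered with filterByExpr by group, scaled with TMM factors and tested with edgeR 4.0.16 (R 4.3.3) in 1 quasi-likelihood model of the 9 libraries with a mean per group, and p-values were adjusted by the Benjamini-Hochberg method. Levels are CPM of the TMM-scaled library size, and the SE of a log2 difference was derived from the F statistic. A total of 3 counts corresponds to 0.0745 to 0.421 CPM. The test was tried on simulated counts first. DESeq2 1.42.0, limma 3.58.1 (voom), other scalings, filters, thinned counts and leaving out each library were alternatives. Libraries that share a letter did not deviate together (correlations -0.009, 0.046 and -0.005), so no pairing was used.

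Named genes are the 15 largest called rises and falls without overlap whose mean log2 CPM was 2 or more, the 5 members of each list with the smallest p and members called against their list's direction, all tested members of the 3 lipid lists, the 5 smallest p of all genes, and a set of inflammatory and lipid genes. List members below the filter and defining markers of other cells are named in addition, and a few genes that count in the lists are not reported here by name. The 37 lists and the comparison were chosen with earlier results of these data known. Gene positions are from GENCODE M21 (GRCm38) and promoters from RefSeq (GRCm38.p6).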

Additional observations from a re-analysis of the deposited data

How the results depend on the processing

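Of the 165 genes recomputed under each alternative, none that was called there or in the reported fit changed direction. Scaling by library size alone raised the genes called higher from 439 to 787, with 845 of the 1025 calls shared, and put the median log2 difference of all genes at 0.038 in place of -0.0012; 66.0% of calls were then higher in place of 42.8%. Requiring a mean log2 CPM of at least 2 left 70 called genes with a 1.5-fold difference in place of 109. In that run 9577 genes were tested and 1034 called. An adjusted p under 0.01 left 240 higher and 355 lower. Leaving out 1 library at a time gave 270 to 435 genes higher, 356 to 603 lower and 83 to 135 with a 1.5-fold difference; the lowest counts came without B2 (270 and 356), and without A2plus 378 were lower. The causes were not tested. With the letter as a replicate block the counts were 459 higher, 628 lower and 114 with a 1.5-fold difference, with 992 calls shared; the letters share only a name here. DESeq2 gave 306 higher and 496 lower, all libraries thinned to the smallest total 309 and 460, and B2 alone thinned to A2 426 and 580.

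The smallest library, A2plus, limits what can be seen in genes of low level, and 3 libraries to a group limit the exact tests of sums to p = 0.1. Whether libraries are separate cultures is unknown, the labels and the inflammatory genes disagree, and depth differs most in the untreated-labelled group.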
